A study of Arabidopsis thaliana with 32 samples.

Results

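A set of 10 genes that make or export root suberin was followed through roots of Arabidopsis thaliana seedlings grown in orbit and on the ground. They were taken by identifier: the fatty acid hydroxylase genes CYP86A1 and CYP86B1, the elongase gene KCS2, the acyltransferase gene GPAT5 and the reductase genes FAR1, FAR4 and FAR5. The feruloyl transferase gene ASFT and the transporter genes ABCG6 and ABCG20 complete the 10. The authors' 8 deposited comparison tables list 5162 genes in all, alone or in a row of several. Of the 10 genes, 7 are among them and 3 (KCS2, ABCG6 and ABCG20) are in no table.

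The 32 RNA sequencing libraries form 8 groups of 4 biological replicates, all from whole roots of light-grown seedlings fixed in RNAlater, with no transgene or mutation named in the labels. In Col-0 the groups were flight at 8 days, ground at 8 days, flight at 4 days and ground at 4 days, and the same 4 groups were grown of the accession WS. Flight seedlings germinated and grew on the International Space Station in the Veggie plant growth unit. Ground controls grew in a chamber that replayed the station's temperature, carbon dioxide and light 48 h later. Each replicate combined 2 to 3 roots of 8 day seedlings or 5 to 8 roots of 4 day seedlings. The tables hold 1 FPKM value per group (fragments scaled to transcript length and to the library's total), no value per library, and only loci with a q-value of 0.05 or less. Depth per library is therefore unknown. A gene with no row is called not called here, and its level in that comparison is not known.

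Suberin is a polyester of fatty acids, glycerol and ferulic acid, laid down with waxes between the plasma membrane and the wall. In young roots it coats differentiated endodermal cells above the zone of the Casparian strip, and limits the flow of water, ions and gases. Fatty acids are hydroxylated by the cytochrome P450 enzymes, lengthened by elongases, reduced to alcohols by the FAR enzymes and joined to glycerol by GPAT5, and ASFT adds ferulate. ABCG transporters of the plasma membrane carry the monomers out of the cell. Abscisic acid is known to increase suberin deposition in Arabidopsis roots, and MYB transcription factors switch the genes on.

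The 300 bases before the annotated transcript start were read for each gene from the RefSeq TAIR10.1 genome. Those of the genes that carry the results are shown first, to set the letters beside the changes. CYP86A1 (chr5:23768112-23768411, minus strand), GPAT5 (chr3:3595394-3595693, plus strand) and FAR5 (chr3:16137276-16137575, plus strand) were lower in flight at both ages in Col-0. CYP86B1 (chr5:7805969-7806268, minus strand) and ASFT (chr5:16431004-16431303, plus strand) had, beside CYP86A1, the largest decreases at 4 days. Each run is written 5′ to 3′ on the gene's own strand, and capitals mark a match, on either strand, to 1 of 3 motifs. These are the MYB site ACCNAAC, the core ACGTG of the abscisic acid response element (ABRE) and the core TTGAC of the W box bound by WRKY factors.
CYP86A1: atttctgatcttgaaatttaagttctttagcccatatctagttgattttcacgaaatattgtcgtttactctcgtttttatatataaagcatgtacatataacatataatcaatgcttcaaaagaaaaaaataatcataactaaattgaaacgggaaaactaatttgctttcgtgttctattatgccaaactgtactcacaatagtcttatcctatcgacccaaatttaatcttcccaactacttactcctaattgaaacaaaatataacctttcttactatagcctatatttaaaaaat
GPAT5: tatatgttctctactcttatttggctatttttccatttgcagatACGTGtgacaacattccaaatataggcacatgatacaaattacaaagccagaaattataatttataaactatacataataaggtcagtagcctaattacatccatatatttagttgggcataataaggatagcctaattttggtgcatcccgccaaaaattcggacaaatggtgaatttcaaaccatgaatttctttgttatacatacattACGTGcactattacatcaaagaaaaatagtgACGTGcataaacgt
FAR5: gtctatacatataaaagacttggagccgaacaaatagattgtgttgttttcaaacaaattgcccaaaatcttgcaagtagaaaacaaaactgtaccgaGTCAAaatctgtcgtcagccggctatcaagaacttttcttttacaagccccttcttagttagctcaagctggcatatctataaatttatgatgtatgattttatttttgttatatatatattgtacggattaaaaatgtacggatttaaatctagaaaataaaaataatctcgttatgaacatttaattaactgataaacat
CYP86B1: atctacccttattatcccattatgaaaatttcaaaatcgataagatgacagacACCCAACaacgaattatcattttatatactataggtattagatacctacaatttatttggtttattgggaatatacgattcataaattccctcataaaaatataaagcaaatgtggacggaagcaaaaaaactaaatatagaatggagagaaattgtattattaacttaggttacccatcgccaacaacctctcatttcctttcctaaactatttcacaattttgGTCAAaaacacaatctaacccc
ASFT: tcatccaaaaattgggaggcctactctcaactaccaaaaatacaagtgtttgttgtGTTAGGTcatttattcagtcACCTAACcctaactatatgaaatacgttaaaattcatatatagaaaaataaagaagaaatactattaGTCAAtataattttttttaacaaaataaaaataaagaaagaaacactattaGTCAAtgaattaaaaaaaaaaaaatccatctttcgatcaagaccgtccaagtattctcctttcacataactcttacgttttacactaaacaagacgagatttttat

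The 5 windows share no motif of the 3. That of CYP86A1 holds none of them. That of GPAT5 holds 3 ABRE cores, with first bases at -256, -45 and -14 from the transcript start, and no MYB site or W box core. The CYP86B1 window holds a MYB site at -247 and a W box core at -22, and the ASFT window holds MYB sites at -244 and -224 and W box cores at -157 and -106. FAR5 has a W box core at -202. Over all 10 genes, 2 windows hold the MYB site, 4 the ABRE core and 7 the W box core. Of 27443 windows before protein-coding genes, 16.8% hold the MYB site, 25.6% the ABRE core and 50.4% the W box core. No match was found to overlap another in the 5 printed windows, and a match says only that the letters are there.

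**Figure D1:**
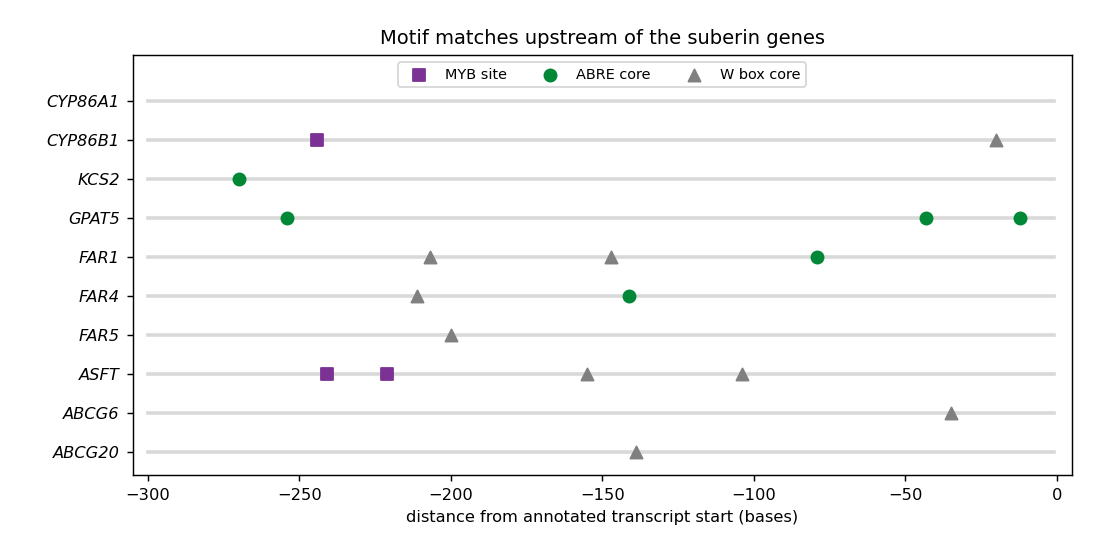
Positions of motif matches on both strands in the 300 bases before the annotated transcript start of the 10 suberin genes, as distance from the start in bases. GPAT5 has 3 ABRE cores, ASFT has 2 MYB sites and CYP86A1 has no match.

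Suberin genes were lower in flight in Col-0 roots at both ages. At 4 days 6 of the 10 genes fell, none rose and 4 were not called, with flight levels of 0.341 to 0.543 times the ground level. At 8 days 3 fell, none rose and 7 were not called, at 0.615 to 0.623 times the ground level. Of all loci tested, 4.11% were called lower at 4 days (806 of 19612) and 2.8% at 8 days (560 of 20035). Of all loci, 3.1% were called higher at 4 days and 1.26% at 8 days. The called genes had a median log2 change of -1.22 at 4 days and -0.68 at 8 days, beside -0.70 and -0.53 over all loci called lower. With the median of all called rows of each table taken as 0, the 8 day changes shrank to -0.27 for CYP86A1, -0.27 for GPAT5 and -0.29 for FAR5, and the 4 day changes ran from -1.10 for CYP86B1 to -0.42 for FAR5. That median rests on called loci only, of which more were lower than higher at both ages. It is therefore no measure of a shift over all loci. Whole roots were measured, so fewer suberised cells and less RNA per cell cannot be told apart in any of these values.

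In WS roots none of the 10 genes was called between flight and ground at either age. The authors' Cuffdiff test called few loci of any kind at 4 days: 0.352% of 17899 were called higher and 0.363% lower. At 8 days 2.36% of 17365 loci were called higher and 2.75% lower. At those shares, no called gene among 10 is not a result about suberin. No unadjusted p-value is listed for genes that were not called, so the flight changes of Col-0 and WS could not be tested against each other. The WS tables also use other coordinates than the Col-0 tables, so levels in the 2 accessions may rest on different gene models.

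With age, those suberin genes that were called rose in both accessions. KCS2, ASFT, ABCG6 and ABCG20 were called in no age table. In 8 day against 4 day roots, 5 of the 10 rose in Col-0 flight roots, 4 in Col-0 ground roots, 1 in WS flight roots and 5 in WS ground roots (FAR5 there in a row shared with FAR8), and none fell in any of the 4 age tables. Of all loci tested, 3.33% were called higher with age in Col-0 flight roots, 5.69% in Col-0 ground roots, 2.65% in WS flight roots and 2.85% in WS ground roots. Loci called lower with age made up 3.45% in Col-0 flight roots, 5.54% in Col-0 ground roots, 3.42% in WS flight roots and 3.27% in WS ground roots. The 3 genes called in both Col-0 age tables were CYP86A1, GPAT5 and FAR5. The 95% intervals from the standard errors of the authors' test include 0 for 8 of the 24 called changes, among them 5 of the 6 WS age changes, although every q-value is 0.05 or less.

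**Figure D2:**
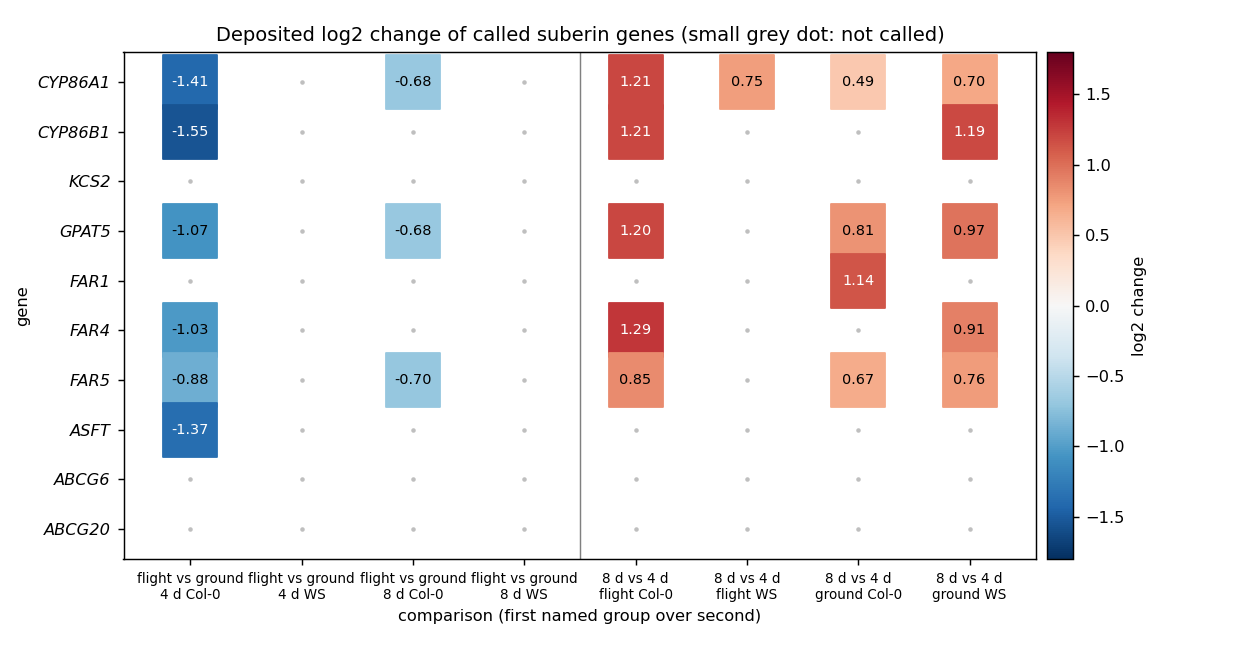
Deposited log2 change of each of the 10 suberin genes (rows) in each of the 8 comparisons (columns, first named group over second), coloured blue where lower and red where higher. A small grey dot marks a gene that was not called; all called flight changes are negative (6 at 4 days and 3 at 8 days in Col-0) and all called age changes are positive.

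The hydroxylases make the terminal hydroxyl groups through which fatty acids are linked into the polyester, CYP86A1 on the shorter chains and CYP86B1 on very long ones. CYP86A1 (AT5G58860, TAIR10.1 chromosome 5, 23765791 to 23768111, minus strand, 2 coding exons) was called in 6 of the 8 tables, more than any other of the 10. In the authors' deposited table for 4 days, its level was 10.5 FPKM in Col-0 flight roots and 27.8 FPKM in Col-0 ground roots. That is a log2 change of -1.41 ± 0.52 in the authors' deposited table (± gives the standard error, taken from the authors' test statistic, with 4 replicates per group and a Cuffdiff q-value of 0.00185). At 8 days its level was 25.7 FPKM in Col-0 flight roots and 41.3 FPKM in Col-0 ground roots, a log2 change of -0.68 ± 0.25 in the authors' deposited table.

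Both age changes of CYP86A1 in Col-0 were increases. The authors' deposited table gave 25.1 FPKM at 8 days and 10.9 FPKM at 4 days in Col-0 flight roots, a log2 change of 1.21 ± 0.46. On the ground the authors' deposited table gave 39.9 FPKM at 8 days and 28.5 FPKM at 4 days in Col-0, a log2 change of 0.49 ± 0.33 with a Cuffdiff q-value of 0.0459. The 2 age changes did not differ beyond their errors (flight minus ground 0.72, 95% interval -0.38 to 1.83). The deposited locus of CYP86A1 spans 8125 bases and takes in the neighbouring gene AT5G58870, which has a row of its own in the Col-0 ground age table, with a log2 change of 1.44 in the authors' deposited table.

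Of the 10 genes, CYP86A1 alone was called with age in WS flight roots. Its level there was 23.0 FPKM at 8 days and 13.7 FPKM at 4 days, a log2 change of 0.75 ± 0.41 in the authors' deposited table. WS ground roots had 28.6 FPKM at 8 days and 17.6 FPKM at 4 days in the authors' deposited table, a log2 change of 0.70 ± 0.37. The age changes of CYP86A1 in WS flight and WS ground roots differed by 0.05, with a 95% interval of -1.04 to 1.15. Set side by side across these separately normalised tables, WS flight roots had the lower value at each age, as Col-0 flight roots did, but no test of flight in WS listed the gene.

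CYP86B1 (AT5G23190, TAIR10.1 chromosome 5, 7803141 to 7805968, minus strand) had the largest flight decrease of the 10. At 4 days its level was 3.38 FPKM in Col-0 flight roots and 9.92 FPKM in Col-0 ground roots, a log2 change of -1.55 ± 0.47 and the 39th largest of 806 decreases in the authors' deposited table. It was not called between flight and ground at 8 days. With age, its level was 8.10 FPKM at 8 days and 3.51 FPKM at 4 days in Col-0 flight roots, a log2 change of 1.21 ± 0.44 in the authors' deposited table. In WS ground roots it was 6.04 FPKM at 8 days and 2.64 FPKM at 4 days, a log2 change of 1.19 ± 0.65 in the authors' deposited table. The coding sequences of the 2 hydroxylase genes are 55.1% identical with no shared run over 11 bases.

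GPAT5, ASFT and the FAR genes act on the hydroxylated or activated acids. GPAT5 (AT3G11430, TAIR10.1 chromosome 3, 3595694 to 3597952, plus strand), which joins the acids to glycerol, had the lowest level listed for any of the 10, in 4 day Col-0 flight roots. At 4 days it stood at 2.55 FPKM in Col-0 flight roots and 5.36 FPKM in Col-0 ground roots, a log2 change of -1.07 ± 0.51 in the authors' deposited table. At 8 days it stood at 6.21 FPKM in Col-0 flight roots and 9.96 FPKM in Col-0 ground roots, a log2 change of -0.68 ± 0.31 in the authors' deposited table.

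The age change of GPAT5 was called in 3 tables. Its level was 6.06 FPKM at 8 days and 2.65 FPKM at 4 days in Col-0 flight roots, a log2 change of 1.20 ± 0.46 in the authors' deposited table. Col-0 ground roots had 9.62 FPKM at 8 days and 5.48 FPKM at 4 days in the authors' deposited table, a log2 change of 0.81 ± 0.37. WS ground roots had 7.40 FPKM at 8 days and 3.77 FPKM at 4 days in the authors' deposited table, a log2 change of 0.97 ± 0.58. That last q-value, 0.0492 by Cuffdiff in the authors' deposited table, was the closest to the threshold of any for the 10 genes.

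ASFT (AT5G41040, RefSeq symbol RWP1, TAIR10.1 chromosome 5, 16431304 to 16433305, plus strand) transfers ferulate onto hydroxylated fatty acids. It was called in 1 table, with 31.1 FPKM in Col-0 flight roots and 80.7 FPKM in Col-0 ground roots at 4 days, a log2 change of -1.37 ± 0.48 in the authors' deposited table. Its ground value was the highest FPKM listed for any of the 10 genes. The deposited locus of ASFT spans 18264 bases and takes in 9 other annotated genes, although its row names ASFT alone.

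FAR5, FAR4 and FAR1 reduce fatty acids of increasing length to the primary alcohols of suberin and its waxes. FAR5 (AT3G44550, TAIR10.1 chromosome 3, 16137576 to 16142270, plus strand) was lower in flight at both ages in Col-0. At 4 days it had 16.8 FPKM in Col-0 flight roots and 31.0 FPKM in Col-0 ground roots, a log2 change of -0.88 ± 0.40 in the authors' deposited table. At 8 days it had 32.2 FPKM in Col-0 flight roots and 52.3 FPKM in Col-0 ground roots, a log2 change of -0.70 ± 0.22 in the authors' deposited table.

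With age FAR5 rose in both Col-0 tables. Col-0 flight roots had 31.4 FPKM at 8 days and 17.5 FPKM at 4 days, a log2 change of 0.85 ± 0.32 in the authors' deposited table. Col-0 ground roots had 50.5 FPKM at 8 days and 31.7 FPKM at 4 days, a log2 change of 0.67 ± 0.30 in the authors' deposited table. In WS ground roots the row that rose holds FAR5 together with its neighbour FAR8 (AT3G44560), at 18.5 FPKM at 8 days and 10.9 FPKM at 4 days, a log2 change of 0.76 ± 0.41 in the authors' deposited table. The FAR5 and FAR8 coding sequences are 87.5% identical, with a longest shared run of 35 bases, so that WS value cannot be given to FAR5 alone.

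FAR4 (AT3G44540, TAIR10.1 chromosome 3, 16123426 to 16128030, plus strand), which lies before FAR5 on the same strand, was called in 3 tables. At 4 days it had 7.73 FPKM in Col-0 flight roots and 15.8 FPKM in Col-0 ground roots, a log2 change of -1.03 ± 0.60 in the authors' deposited table. It is the 1 flight change whose 95% interval includes 0 (-2.20 to 0.14), with a Cuffdiff q-value of 0.0193 in the authors' deposited table. With age it had 19.6 FPKM at 8 days and 8.02 FPKM at 4 days in Col-0 flight roots, a log2 change of 1.29 ± 0.45 in the authors' deposited table. WS ground roots had 19.5 FPKM of FAR4 at 8 days and 10.4 FPKM at 4 days in the authors' deposited table, a log2 change of 0.91 ± 0.45. The FAR4 and FAR5 coding sequences are 73.0% identical and share no run over 17 bases. The deposited Col-0 locus of FAR4 spans 45273 bases with 9 other annotated genes.

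FAR1 (AT5G22500, TAIR10.1 chromosome 5, 7470328 to 7474133, plus strand) was called in Col-0 ground roots only, with age. Its level was 32.7 FPKM at 8 days and 14.8 FPKM at 4 days, a log2 change of 1.14 ± 0.73 in the authors' deposited table. AT5G22505, on the opposite strand, overlaps FAR1 by 1310 bases, and the library kit does not mark strand, so reads of the 2 genes cannot be told apart there. The deposited locus of FAR1 spans 8625 bases with 2 other annotated genes.

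KCS2 (AT1G04220), which lengthens acids for suberin, and the exporters ABCG6 (AT5G13580) and ABCG20 (AT3G53510) were called in none of the 8 tables. Their levels are therefore not known.

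CYP86A1, GPAT5 and FAR5 were listed in all 4 Col-0 groups, each group standing in 2 of the authors' deposited tables. CYP86A1 had 25.1 to 25.7 FPKM in 8 day flight roots, 39.9 to 41.3 FPKM in 8 day ground roots, 10.5 to 10.9 FPKM in 4 day flight roots and 27.8 to 28.5 FPKM in 4 day ground roots in the authors' deposited tables. GPAT5 had 6.06 to 6.21 FPKM in 8 day flight roots, 9.62 to 9.96 FPKM in 8 day ground roots, 2.55 to 2.65 FPKM in 4 day flight roots and 5.36 to 5.48 FPKM in 4 day ground roots in the authors' deposited tables. FAR5 had 31.4 to 32.2 FPKM in 8 day flight roots, 50.5 to 52.3 FPKM in 8 day ground roots, 16.8 to 17.5 FPKM in 4 day flight roots and 31.0 to 31.7 FPKM in 4 day ground roots in the authors' deposited tables. In all 3 genes the 8 day ground group was highest and the 4 day flight group lowest. No deposited table compares 8 day flight with 4 day ground roots, and the tables were normalised separately, so that pair was not tested.

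**Figure D3:**
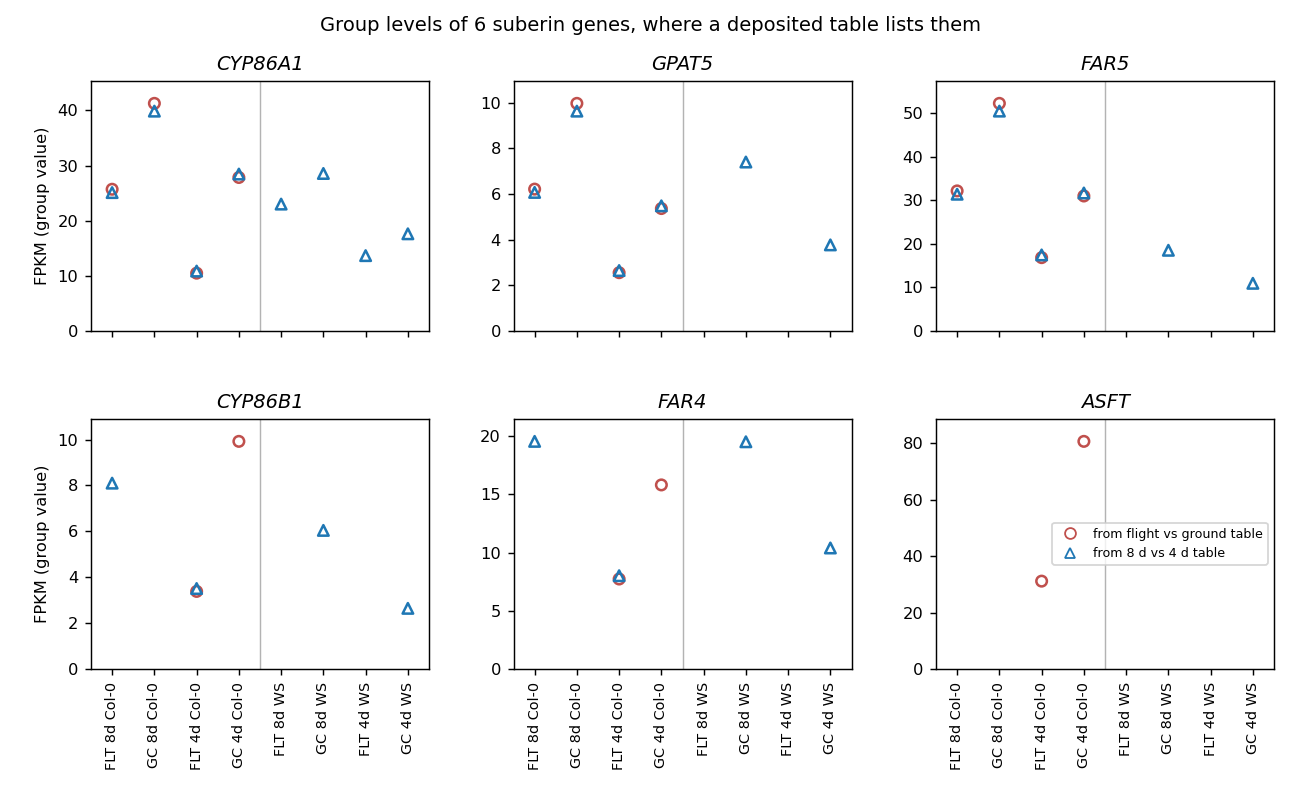
Group FPKM values of 6 suberin genes in those of the 8 groups where a table lists them. Circles are from the flight against ground tables and triangles from the 8 day against 4 day tables. No replicate values exist and no error bars are drawn. ASFT is listed in the 4 day Col-0 groups only, and CYP86B1 and FAR4 have no 8 day Col-0 ground value. In Col-0 the 4 day flight group is the lowest listed in every panel (10.5 to 10.9 FPKM for CYP86A1), and the 8 day ground group is the highest for CYP86A1, GPAT5 and FAR5.

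No difference in the size of the flight change between ages, or of the age change between flight and ground or between accessions, was detected for CYP86A1, GPAT5 and FAR5, the only suberin genes called in both tables of any pair. Genes called in 1 table of a pair, such as CYP86B1, FAR4 and ASFT in flight at 4 days, could not be tested in this way. From pairs of tables that share no library, 11 differences could be formed for CYP86A1, GPAT5 and FAR5, out of 2217 for all genes. None of the 11 had an adjusted p of 0.05 or less, and none had an unadjusted p of 0.05 or less by this normal test of the deposited errors. Of the 2217, 34 passed adjustment. The test is strict, since intervals from the same errors include 0 for 8 of the 24 changes that Cuffdiff called. That no difference was detected therefore does not show that the changes were alike. The flight change at 8 days minus that at 4 days in Col-0 was 0.73 for CYP86A1 (95% interval -0.40 to 1.85), 0.39 for GPAT5 (-0.79 to 1.56) and 0.18 for FAR5 (-0.71 to 1.07). On the ground, the age change in Col-0 minus that in WS was -0.21 for CYP86A1 (-1.18 to 0.76), -0.16 for GPAT5 (-1.51 to 1.19) and -0.09 for FAR5 (-1.08 to 0.90), where the WS value is that of the row FAR5 shares with FAR8. In flight the same difference was 0.46 for CYP86A1 (-0.75 to 1.67). The age change in flight minus that on the ground in Col-0 asks the same question of the 4 groups as the flight change at both ages, and gave 0.72 for CYP86A1, 0.38 for GPAT5 and 0.17 for FAR5. These intervals are wide enough to hold a difference as large as the changes themselves.

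**Figure D4:**
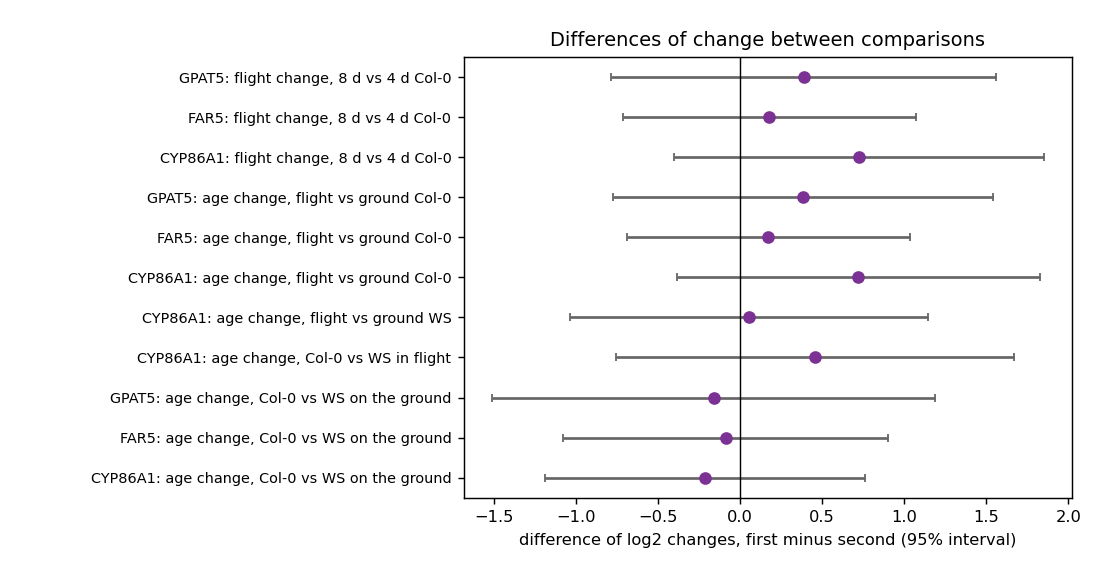
Differences between log2 changes for the 3 suberin genes called in both tables of a pair (points) with 95% intervals (bars), first named change minus second. All 11 intervals include 0.

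A further 10 genes of suberin synthesis and export were followed beside these. At 4 days 4 of them fell in Col-0 flight roots and none rose, and at 8 days 3 fell and none rose. The shares of all loci called lower were 4.11% at 4 days and 2.8% at 8 days. KCS1, an elongase gene, had a log2 change of -1.49 ± 0.82 at 4 days in the authors' deposited table. GELP38 (AT1G74460), a suberin assembly gene from the GDSL lipase family, had one of -1.43 ± 0.27 at 4 days in the authors' deposited table. FACT, which makes caffeoyl esters of fatty alcohols, had -0.77 ± 0.42 and GELP96 (AT5G37690) -0.77 ± 0.26 at 4 days in the authors' deposited table. At 8 days GELP38 had -0.71 ± 0.17, the exporter gene ABCG2 -0.66 ± 0.38 and GELP96 -0.47 ± 0.16 in the authors' deposited table.

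GELP38 was the one gene of these 10 called in flight in WS, and only at 8 days. Among all loci, 2.75% were called lower there, so 1 call among 10 says little about the list. At 8 days the level of GELP38 was 52.1 FPKM in WS flight roots and 91.4 FPKM in WS ground roots, a log2 change of -0.81 ± 0.32 in the authors' deposited table. In Col-0 it stood at 80.5 FPKM in 8 day flight roots and 131 FPKM in 8 day ground roots in the authors' deposited table, so the change had the same sign in both accessions. With age FACT and GELP96 rose in all 4 age tables and GELP38 in 3, and none of the 10 fell in any. Loci called higher with age made up 3.33% of all in Col-0 flight, 2.65% in WS flight, 5.69% in Col-0 ground and 2.85% in WS ground roots. Those called lower made up 3.27% to 5.54%, so no fall among 10 is not a result about these genes. The WS rows of GELP96 hold 3 genes. FACT had the largest of these increases with age, a log2 change of 2.08 ± 0.34 in Col-0 flight roots in the authors' deposited table.

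Of 7 MYB genes known to promote suberin synthesis, 3 fell in 4 day Col-0 flight roots and none rose. The share of all loci called lower there was 4.11%. MYB39, also named SUBERMAN, had a log2 change of -1.48 ± 0.70, MYB9 one of -0.96 ± 0.53 and MYB92 one of -0.68 ± 0.30 in the authors' deposited table. The MYB92 row holds 2 genes. None of the 7 was called between flight and ground in 8 day Col-0 roots or 4 day WS roots. At the shares of all loci called there, that is not a result about these genes. In 8 day WS roots, where 2.75% of all loci were called lower, MYB93 was the 1 gene of the 7 called. MYB93 had 21.4 FPKM in flight and 30.1 FPKM on the ground there, a log2 change of -0.49 ± 0.28 in the authors' deposited table. With age MYB93 rose in all 4 tables, by 0.68 ± 0.39 in Col-0 ground roots to 1.39 ± 0.46 in WS ground roots in the authors' deposited tables. MYB9 rose with age in Col-0 flight roots only, with a log2 change of 1.08 ± 0.48 in the authors' deposited table. MYB92 went the other way, falling with age in Col-0 ground roots with a log2 change of -0.61 ± 0.27 in the authors' deposited table. In the 4 age tables, 2.65% to 5.69% of all loci were called higher and 3.27% to 5.54% lower.

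Genes of the Casparian strip and endodermal identity were counted beside the suberin genes. Among all loci, 4.11% were called lower in 4 day Col-0 flight roots and 1.26% higher in 8 day Col-0 flight roots. With age, 5.54% were called lower in Col-0 ground roots and 3.27% in WS ground roots. Of 9 such genes, 2 fell in 4 day Col-0 flight roots and none rose: ESB1 with a log2 change of -1.30 ± 0.33 and CASP5 with -1.23 ± 0.42 in the authors' deposited table. In 8 day Col-0 flight roots the endodermal identity gene SCR rose, with 0.40 ± 0.24 in the authors' deposited table, and none fell. With age none rose and 3 fell in Col-0 ground roots, where CASP5 had a log2 change of -2.61 ± 0.54 in the authors' deposited table. In WS ground roots 2 fell with age and none rose. In Col-0 flight roots ESB1 rose with age and CASP5 fell, and in WS flight roots SCR fell. None of the 9 was called between flight and ground in WS at either age. No more than 2.75% of all loci were called in either direction there, so that is not a result about these genes.

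**Figure D5:**
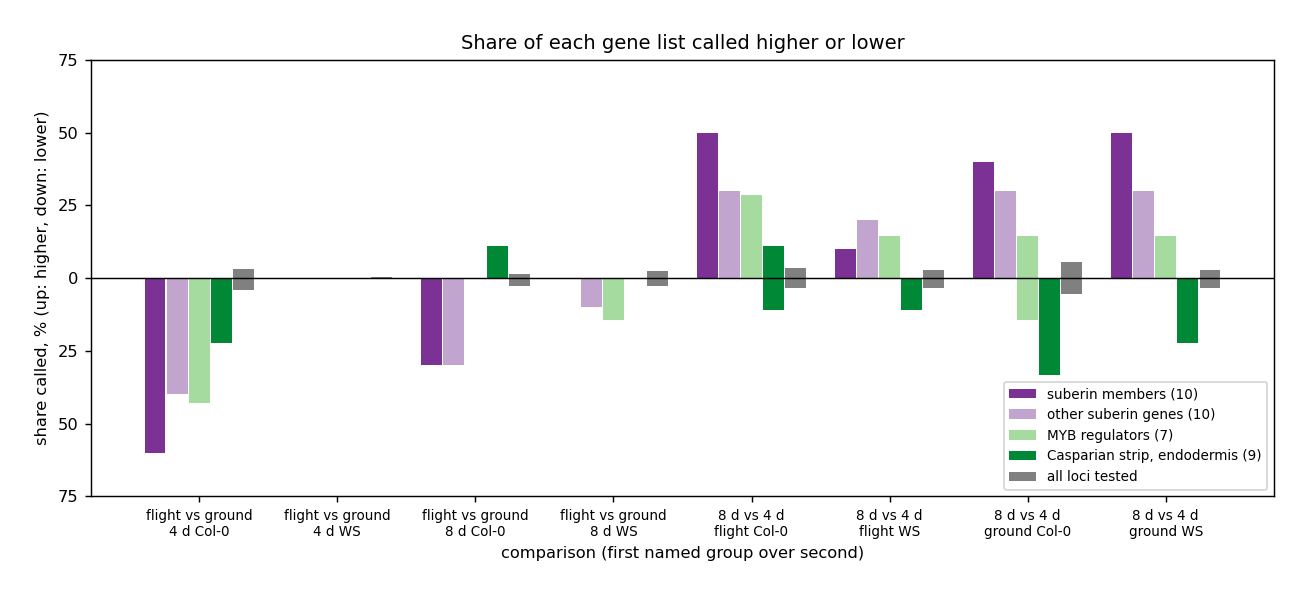
Share of each gene list called higher (up) or lower (down) in each comparison, in percent, with the share of all loci tested in grey. Suberin genes point down in the Col-0 flight tables (60% and 30% of the 10) and up in the 4 age tables (1 to 5 of the 10). Casparian strip and endodermal genes point down in 4 day Col-0 flight roots (2 of 9) and in both ground age tables (3 and 2 of 9). In 8 day Col-0 flight roots 1 of the 9 points up.

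Genes of other cells and tissues were counted in the same tables. In no flight table were more than 4.11% of all loci called lower or 3.1% higher. No called gene among 6 is thus not a result about those cells. With age, 3.27% to 5.54% of all loci were called lower and 2.65% to 5.69% higher. None of 6 root hair markers was called in any flight table, and 3 of them fell with age in Col-0 ground roots. Of 6 pericycle and vascular markers, none was called in either Col-0 flight table, and 1 was higher in 8 day WS flight roots. Of 6 green tissue markers, 3 fell and none rose in Col-0 flight roots at each age, with LHCB2.1 at -0.78 ± 0.49 at 4 days and -2.17 ± 0.48 at 8 days in the authors' deposited tables. In WS flight roots 2 rose at 4 days and none was called at 8 days. With age, green tissue markers fell in all 4 tables and none rose: 3 of 6 in Col-0 flight, 2 in WS flight, 1 in Col-0 ground and 2 in WS ground roots. RBCS2B, a small subunit of Rubisco, fell in each. In the authors' deposited tables its log2 changes were -3.24 ± 0.82 in Col-0 flight, -4.18 ± 0.88 in WS flight, -4.17 ± 1.05 in Col-0 ground and -4.31 ± 1.25 in WS ground roots. Its 8 day levels were low, at 1.28, 1.94, 0.64 and 0.81 FPKM in the same order in the authors' deposited tables. PHO1, a phosphate exporter of the root stele, in a row of 2 genes, fell with age in Col-0 flight (-0.96), Col-0 ground (-0.76) and WS ground roots (-1.74) in the authors' deposited tables. The phloem gene APL rose with age in Col-0 flight (0.45) and Col-0 ground roots (0.56) in the authors' deposited tables. The part of these markers in the suberin results was not tested, and no summed level can be given since a gene without a call has no row. Cutin and wax genes of the same enzyme families had 4 of 13 lower and none higher in 4 day Col-0 flight roots. Among them FAR3 had a log2 change of -1.04 ± 0.47, GPAT6 one of -0.86 ± 0.47, CYP86A8 one of -0.70 ± 0.40 and GPAT8 one of -0.43 ± 0.27, from a row of 4 genes, in the authors' deposited table. At 8 days 2 of the 13 fell and none rose in Col-0 flight roots. With age GPAT6 rose in Col-0 flight (0.72), Col-0 ground (0.67) and WS ground roots (1.22) in the authors' deposited tables. FAR3 fell with age in Col-0 ground roots (-1.32) in the authors' deposited table.

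Outside these lists, 5 genes shared the calls of CYP86A1 in all 8 tables, out of 182 genes called in 5 or more tables that were compared. In order of likeness they were AT3G46540 (RefSeq product ENTH/VHS family protein), AT3G44940 (enabled-like protein), AT1G78990 (HXXXD-type acyl-transferase family protein), AT3G27400 (pectin lyase-like protein) and AT2G43590 (chitinase family protein). The mean absolute difference of log2 change from CYP86A1 over the 6 shared tables was 0.30 for AT3G46540, 0.41 for AT3G44940, 0.48 for AT1G78990, 0.91 for AT3G27400 and 0.92 for AT2G43590. AT1G78990 had the larger change of the pair in all 6 tables, as with -0.81 for AT1G78990 and -0.68 for CYP86A1 between flight and ground at 8 days in Col-0 in the authors' deposited table.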

How the data were processed

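The files are 8 tables of the authors' comparisons, with no value per sample. Per the submitters' processing notes, Cuffdiff, Cufflinks, Picard, STAR 2.5.1b, FastQC 0.11.2 and Trimmomatic 0.36 were used with TAIR10, in an order and with settings that the notes do not state. The deposited FPKM is 1 value per group of 4 libraries, normalised within each table. The same group differed between its 2 tables by a median log2 ratio of -0.12 to 0.13. The deposited log2 fold change is given here as flight over ground or 8 days over 4 days, with the sign turned in tables laid out the other way. The deposited test statistic, a score, gave the standard error as the size of the log2 change over the size of the score. Cuffdiff takes its p-value from simulation, so an interval from that error can include 0 beside a q-value under 0.05. The deposited p-value and q-value are the authors', and how many loci were tested was worked out from each row's q-value, p-value and rank. Per the labels' protocols, libraries came from 10 ng of total RNA by a full-length cDNA kit.

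Every listed gene has a q-value of 0.05 or less and was taken as called. The members, the 7 lists and the naming rule (all members, up to 4 called genes per list and comparison by size, and the 5 genes most like the member called most often) were chosen with earlier results of these data known. Differences of change between tables without a shared library were set against a normal distribution and adjusted by Benjamini-Hochberg over 2217 differences. That test and the recovery of loci numbers were tested on simulated data. For the test, changes were drawn from normal distributions with the same errors that the test uses. That simulation therefore does not show how the test performs on the deposited values. Positions, coding sequences and upstream windows came from RefSeq TAIR10.1, in which all 2075 single genes of the Col-0 ground age table overlapped their deposited locus. The WS tables place the 5 suberin genes they list at other coordinates, outside their TAIR10.1 positions, so another reference may have been used for WS and no WS coordinate is given. A gene on 1 list is not reported here and was left out of its counts. Protein sequences were not used here, and coding sequence identity, chosen after the data were seen, took their place. Python 3.11.15, pandas 2.3.3, SciPy 1.17.1 and Biopython 1.88 were used. Alternatives were a q-value of 0.01, a log2 change of 1, a minimum of 5 FPKM, rows of 1 gene only, log2(FPKM + 1), centring on all called rows, errors 1.5 times larger and adjustment within a pair.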

Additional observations from a re-analysis of the deposited data

How the results depend on the processing

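Centring was the only alternative that could reverse the direction of a called suberin gene, and it reversed none. Filters on rows and log2(FPKM + 1) keep the sign by construction. Counts were within 1.5 times of the reported ones under a minimum of 5 FPKM or with rows of 1 gene only, in all 8 comparisons. With a log2 change of 1 or more, the count was 0 for flight in 8 day Col-0 roots, and for age 0 in WS flight, 1 in Col-0 ground and 1 in WS ground roots. With the same limit on log2(FPKM + 1), it was 3 for flight in 4 day Col-0 roots and 0 in 8 day Col-0 roots, and for age 3 in Col-0 flight, 0 in WS flight, 1 in Col-0 ground and 0 in WS ground roots. With a q-value of 0.01 or less, age counts were 0 in WS flight, 2 in Col-0 ground and 2 in WS ground roots. These rules are stricter by construction. Centring on the median of all called rows moved 9 of 24 changes by more than their error, among them all 3 flight changes of 8 day Col-0 roots. The differences between tables gave 0 calls with errors 1.5 times larger and with adjustment within a pair. Neither setting could have given a call, because no unadjusted p passed and both settings can only keep or raise a p-value. They therefore say nothing about how stable that result is. In 3 pairs of flight tables no member was listed in both. No paired analysis was possible because the tables hold 1 value per group, and for the same reason no replicate could be left out.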
